A study of Rattus norvegicus with 320 samples.

Results

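miR-204 and miR-211 were followed across 11 organs of Fischer 344 rats by small RNA sequencing. The table of read counts listed 616 miRNAs, and the rows named for these miRNAs with any arm suffix were taken, which gave 3 rows: rno-miR-204-5p, rno-miR-204-3p and rno-miR-211-5p (written below without the species prefix). The rats were of an inbred laboratory strain and received no treatment, and groups were defined by organ, sex and age (2, 6, 21 or 104 weeks), with 4 rats per group and 10 organs per rat (adrenal gland, brain, heart, kidney, liver, lung, skeletal muscle, spleen, thymus, and testis or uterus). Of the 320 libraries, 1 male brain library of week 6 and 1 female spleen library of week 104 were left out, so 318 were used. Each whole organ was ground before RNA extraction, so fewer cells of a type and less miRNA per cell cannot be told apart in these values.

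miRNAs are short RNAs that lower the output of messenger RNAs paired to their seed, bases 2 to 8 counted from the 5′ end. miR-204 and miR-211 are paralogs whose genes lie in introns of Trpm3 and Trpm1, genes of related cation channels. miR-204 is best known from the retinal pigment epithelium, the choroid plexus of the brain ventricles and the kidney, and miR-211 from melanocytes, where Trpm1 is transcribed under the factor MITF.

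The mature sequences are shown because they decide how reads can be assigned. All 3 rows matched a RefSeq mature entry with the same sequence (GRCr8 assembly), and the capitals mark the seed.
miR-204-5p: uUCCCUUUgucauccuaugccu
miR-211-5p: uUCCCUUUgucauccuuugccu
miR-204-3p: gCUGGGAAggcaaagggacguu
Both 5p miRNAs are 22 bases long and differ by 1 substitution, A17U, written as the base of miR-204-5p, its position from the 5′ end and the base of miR-211-5p. They share the seed, and no other row of the table had it. miR-204-5p lies at chr1:229743493-229743514 and miR-204-3p at chr1:229743532-229743553, both on the plus strand within the span of Trpm3. miR-211-5p lies at chr1:127189353-127189374 on the plus strand within the span of Trpm1. The hairpins are shown because miR-204-3p comes from the other arm of the same precursor, and their capitals mark the mature arms.
Mir204: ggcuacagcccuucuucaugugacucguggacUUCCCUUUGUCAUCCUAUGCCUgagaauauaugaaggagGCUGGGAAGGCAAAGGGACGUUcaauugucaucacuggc
Mir211: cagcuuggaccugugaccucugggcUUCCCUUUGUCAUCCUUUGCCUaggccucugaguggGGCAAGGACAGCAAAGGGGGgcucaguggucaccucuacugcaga
The alignment allowed a mismatch, so a read of one 5p miRNA could be counted for the other, and the size of that exchange was not tested. The deposited counts carry no coordinates, and the positions above are from RefSeq.

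Summed miRNA reads per library ranged from 315550.0 to 10571766, with the shallowest libraries in the liver (315550.0 to 1692126), so low values are least certain there. Levels are given as CPM, the counts scaled to the same sum of miRNA reads in every library, as mean ± SD unless stated. Of 16 organ markers, 14 were highest in the organ they mark, and miR-192-5p and miR-194-5p, taken as kidney markers, were higher in the liver than in the kidney. No pair of libraries was identical. By the study's methods, the RNA of all spleens of week 2 was of low integrity, unlike that of most other samples, so age and RNA quality cannot be told apart in contrasts of the spleen with week 2. The fits were scaled by TMM, a method of edgeR that aligns the bulk of the miRNAs between libraries. Against scaling by library size alone it moved the median of all miRNAs by between -0.29 and 1.53 (log2) for week 104 over week 2, with the largest shift in the testis, so the direction under both scalings is given where they differ.

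miR-204-5p had its highest mean CPM in the brain and its lowest in the liver at every age. It was next highest in the testis and spleen at weeks 2, 6 and 21, and in the spleen and thymus at week 104. In the brain it stood at 7025 ± 966 at week 2, 8769.7 ± 545 at week 6, 7974 ± 920.2 at week 21 and 8629.7 ± 1554 at week 104 (CPM, n = 8 except n = 7 at week 6). The individual brain libraries spanned 6080.4 to 10809 CPM, and it ranked 26 of 616 miRNAs there by mean CPM. The highest value came from a female brain of week 104 with the fewest summed miRNA reads of the kept brains (1164462). The study reports a proportion of miRNA reads for that library far below the brain average. Brain libraries held 62.1% of all miR-204-5p reads. In the testis it stood at 3819 ± 696 at week 2, 5383 ± 336 at week 6, 4916 ± 171 at week 21 and 1326 ± 201 at week 104 (n = 4). The 4 testis libraries of week 104 (1507, 1469.9, 1079 and 1246 CPM) lay below every testis library of the other ages. In the spleen it stood at 1437 ± 150.2 at week 2, 2129 ± 389 at week 6, 2871 ± 725 at week 21 and 2286 ± 723 at week 104 (n = 8, n = 7 at week 104). All spleen libraries were above all libraries of liver, lung, kidney, uterus, heart and adrenal gland.

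In the thymus the week 104 level was far above the younger ones. miR-204-5p there was 195 ± 42.2 at week 2, 221 ± 22 at week 6, 504 ± 79.9 at week 21 and 2214 ± 869 at week 104 (n = 8). In skeletal muscle it was 389.8 ± 59.8 at week 2, 529 ± 251 at week 6, 449 ± 105 at week 21 and 297 ± 66.7 at week 104, and 1 female library of week 6 stood apart at 1145 CPM, without which that mean was 441 ± 33.2 (n = 7). The study's metadata give this library the original file name of a brain library. A female brain library of week 6 has that of a skeletal muscle library. Whether this bears on the value was not tested. In the adrenal gland miR-204-5p was 334 ± 82.1 at week 2, 296 ± 50.5 at week 6, 287 ± 72.3 at week 21 and 269 ± 61.7 at week 104. Skeletal muscle and adrenal gland thus lay in a middle range at every age. In the heart it was 133 ± 33 at week 2, 181 ± 34.9 at week 6, 352 ± 54.7 at week 21 and 393 ± 189 at week 104, with the widest spread at week 104. The kidney, an organ in which miR-204 is often studied, held far less than the brain: 200.4 ± 31.7 at week 2, 195 ± 20.3 at week 6, 293 ± 97.3 at week 21 and 315 ± 111 at week 104. In the lung it was 234 ± 26.7 at week 2, 207 ± 33 at week 6, 259 ± 51.5 at week 21 and 237 ± 53.7 at week 104. Kidney and lung libraries overlapped at every age. In the uterus it was 227 ± 59.1 at week 2, 67 ± 19.9 at week 6, 139 ± 27.2 at week 21 and 146 ± 20.9 at week 104 (n = 4), and the 4 libraries of week 6 (91.6, 73.4, 45.7 and 57.2 CPM) lay below all other uterus libraries. In the liver it was 30.5 ± 10.7 at week 2, 44.7 ± 57.3 at week 6, 38.7 ± 24 at week 21 and 18.5 ± 11.7 at week 104, from counts of 5 to 125 reads per library. The week 6 mean of the liver included 1 male library at 184 CPM, without which it was 24.7 ± 10.4 (n = 7).

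**Figure D1:**
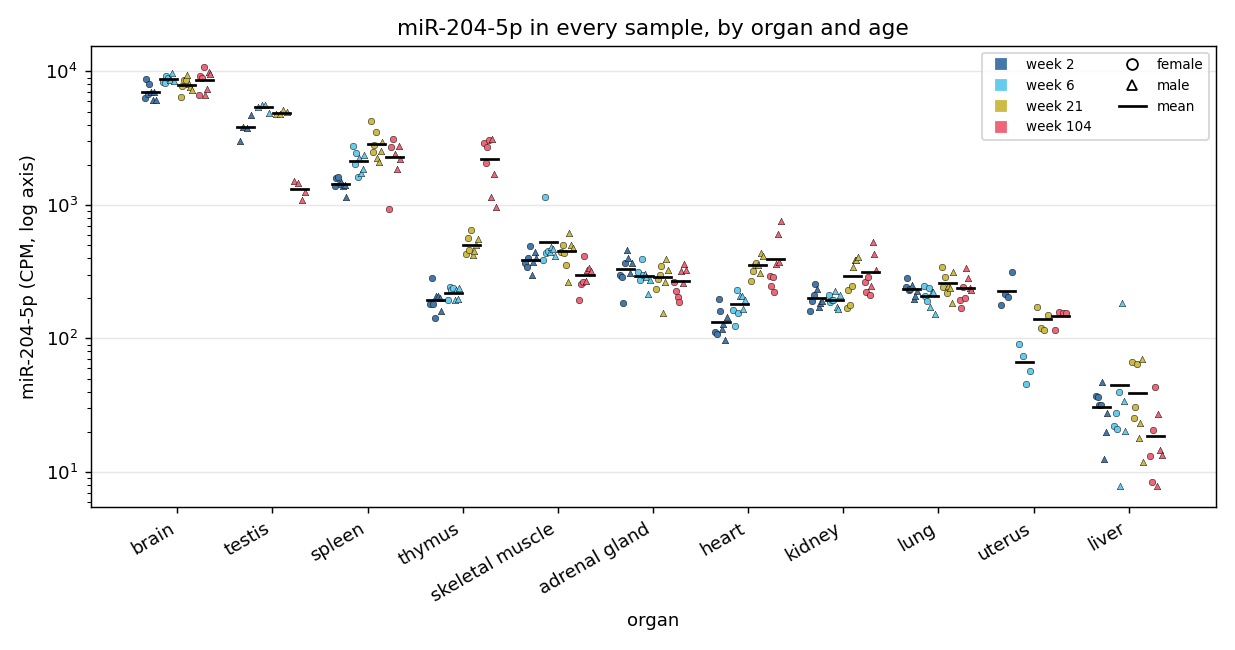
miR-204-5p in CPM (log axis) in every library, by organ, with colours for age, circles for females, triangles for males and bars for means. Brain libraries sit between 6080.4 and 10809 CPM, liver libraries between 7.85 and 184, and thymus libraries of week 104 stand above those of week 2.

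The organs were compared in pairs at each age with edgeR (quasi-likelihood test, Benjamini-Hochberg adjustment over all 616 miRNAs within a contrast), and a pair was called at an adjusted p under 0.05 and at least a 4-fold difference. miR-204-5p was called in 114 of 220 pairs, against 33.3% of all miRNA comparisons called in either direction. The brain was higher in 31 of its 40 comparisons, against 31.5% of all miRNA comparisons called higher in brain. The testis was also higher in 31 of 40, against 19.9% for all miRNAs, and the spleen in 18 of 40, against 13.1%. Brain over testis was 0.59 ± 0.22 (log2 ± SE) at week 2, 0.21 ± 0.29 at week 6, 0.26 ± 0.23 at week 21 and 1.20 ± 0.27 at week 104. It passed the adjusted p without the fold threshold at weeks 2 and 104 (edgeR adjusted p = 0.0134 and 7.04e-05) and not at weeks 6 and 21 (0.515 and 0.316). With library size alone the week 6 and week 21 differences were 0.70 and 0.70 and passed (edgeR adjusted p = 0.0303 and 0.0113), and DESeq2 also called week 6 (0.75, adjusted p = 0.00391). Testis over spleen was 1.32 ± 0.21, 0.87 ± 0.27 and 0.78 ± 0.23 at weeks 2, 6 and 21, all past the adjusted p. At week 104 it was 0.63 ± 0.26 with an adjusted p of 0.0325 in edgeR, but testis CPM were below spleen CPM, library size alone gave -0.79, and the adjusted p was 0.0757 with a replicate block, 0.0612 by DESeq2 and 0.0861 without the first female spleen library of week 104.

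In the order of organs by mean CPM at each age, 22 of 40 neighbouring pairs differed for miR-204-5p (edgeR adjusted p under 0.05), and in 2 of them the TMM-scaled direction was opposite to the CPM order. Those were thymus over skeletal muscle at week 21 (-0.44 ± 0.19) and lung over uterus at week 104 (-0.90 ± 0.25). At week 2 the neighbours that did not differ were skeletal muscle and adrenal gland, lung and uterus, uterus and kidney, and kidney and thymus. At week 6 they were brain and testis, adrenal gland and thymus, thymus and lung, lung and kidney, and kidney and heart. At week 21 they were brain and testis, heart and kidney, kidney and adrenal gland, and lung and uterus. At week 104 spleen, thymus and testis followed each other with no difference between neighbours, and the same held from heart through kidney and skeletal muscle to adrenal gland.

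The other arm of the Mir204 hairpin, miR-204-3p, was close to the limit of detection. It had 326 reads over the 31 brain libraries, where each library held 3 to 32. Next came the spleen with 66 reads over 31 libraries and the testis with 36 over 16. In the adrenal gland, kidney, liver, lung, skeletal muscle and uterus no library held more than 3 reads. The 3p arm made up 0.0411% of the reads of both Mir204 arms in the brain (95% Wilson interval 0.0369 to 0.0458%), 0.0528% in the spleen (0.0415 to 0.0672%) and 0.0284% in the testis (0.0205 to 0.0393%). These intervals cover counting error only. The spleen and brain intervals overlapped, and the testis interval overlapped that of the brain. The other arm of Mir211 was not analysed here.

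miR-211-5p had another order of organs, led by the spleen. In the spleen it was 79.4 ± 25 at week 2, 357 ± 37.3 at week 6, 915 ± 149 at week 21 and 849.9 ± 397 at week 104 (CPM, n = 8, n = 7 at week 104). Spleen libraries held 70.7% of all its reads. In the thymus it went from 4.31 ± 2.36 and 6.98 ± 3.44 at weeks 2 and 6 to 51.9 ± 14.1 and 243 ± 80.7 at weeks 21 and 104. In the brain, the organ with the most miR-204-5p, it was 26.7 ± 9.26 at week 2, 30 ± 3.36 at week 6, 44.9 ± 30.4 at week 21 and 47.8 ± 34.4 at week 104. In the testis it was 14 ± 2.32 at week 2, 34.4 ± 5.5 at week 6, 40.8 ± 4.62 at week 21 and 3.86 ± 0.945 at week 104 (n = 4).

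The remaining organs held little miR-211-5p. The lung was the highest of them, with 5.88 ± 1.37 at week 2, 11.2 ± 1.82 at week 6, 13 ± 3.49 at week 21 and 12.4 ± 4.63 at week 104, and every lung library held at least 14 reads. Skeletal muscle held 3.22 ± 1.72 at week 2, 4.05 ± 1.88 at week 6, 4.37 ± 1.52 at week 21 and 4.47 ± 1.44 at week 104. The heart held 1.19 ± 0.922 at week 2, 1.37 ± 0.368 at week 6, 1.79 ± 0.775 at week 21 and 4.43 ± 4.7 at week 104, the adrenal gland 0.886 ± 0.548 at week 2, 1.36 ± 0.884 at week 6, 0.787 ± 0.457 at week 21 and 2.14 ± 1.87 at week 104 and the kidney 0.775 ± 0.49 at week 2, 0.528 ± 0.324 at week 6, 0.886 ± 0.742 at week 21 and 1.46 ± 0.872 at week 104. In the uterus the values were 1.37 ± 0.298 at week 2, 1.72 ± 2.5 at week 6, 2.34 ± 0.812 at week 21 and 1.4 ± 0.428 at week 104, where 1 of the 4 libraries of week 6 held 34 reads and lifted that mean. In the liver no library of weeks 2, 21 or 104 held more than 3 reads. At week 6 a male liver library held 35 reads (51.7 CPM) and a female one 5 (15.8 CPM), while the other 6 held at most 1. Without the male library the week 6 liver mean was 2.83 ± 5.78 CPM (n = 7) in place of 8.93 ± 18.1.

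**Figure D2:**
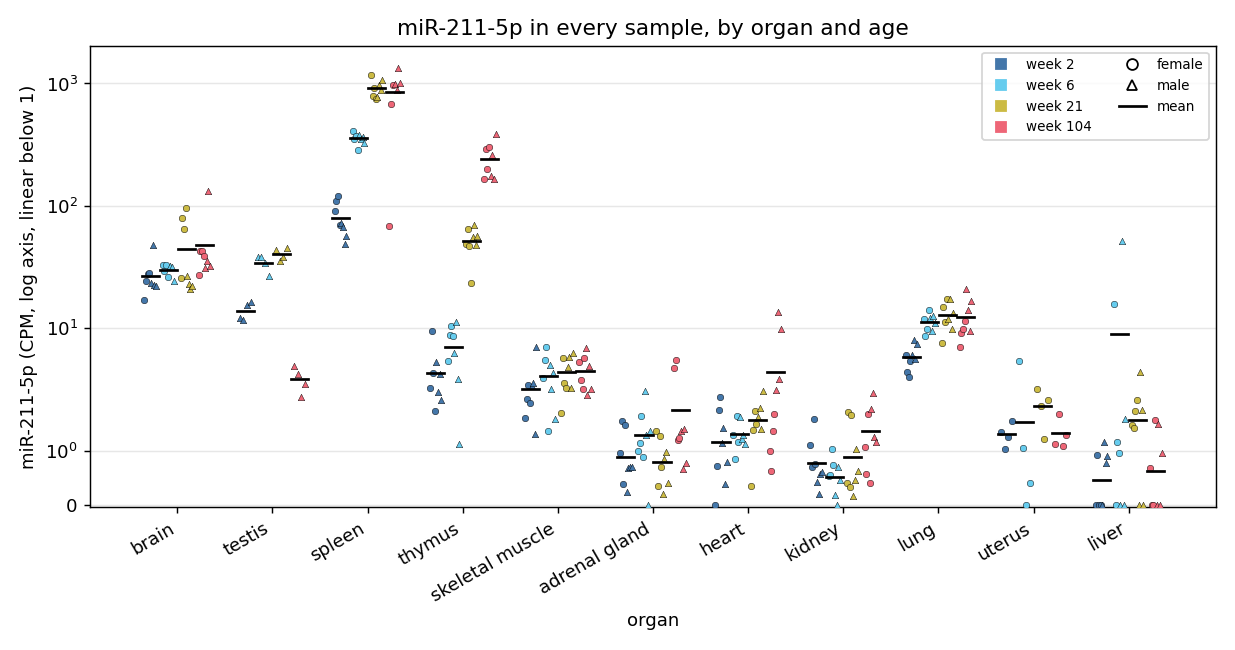
miR-211-5p in CPM (log axis, linear below 1) in every library, by organ, with colours for age, circles for females, triangles for males and bars for means. The spleen climbs from a mean of 79.4 CPM at week 2 to 915 at week 21, with 1 female library of week 104 at 68.1 CPM.

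miR-211-5p was called in 122 of 220 pairs of organs (33.3% for all miRNAs). The spleen was at least 4-fold higher in 38 of 40 comparisons (13.1% for all miRNAs), the thymus in 23 (15%), the brain in 21 (31.5%) and the testis in 16 (19.9%). Brain and testis had much miR-204-5p, and reads of it counted for miR-211-5p could add to their values, which was not tested. Spleen over brain was 1.94 ± 0.21 (log2 ± SE) at week 2, 4.54 ± 0.36 at week 6, 4.80 ± 0.29 at week 21 and 4.16 ± 0.40 at week 104. For miR-204-5p the same contrast ran the other way at every age, with brain over spleen at 1.91 ± 0.18, 1.08 ± 0.24, 1.04 ± 0.19 and 1.82 ± 0.23. The smallest spleen difference was to the thymus at week 104, 1.19 ± 0.36 (edgeR adjusted p = 0.00498), and it had an adjusted p of 0.0664 without the libraries numbered 3. Set against 3 reads per liver library, spleen was at least 32.9-fold higher than liver at week 2, at least 273-fold at week 21 and at least 274-fold at week 104. Of 40 neighbouring pairs in the CPM order, 15 differed. Spleen stood above its next organ at every age. Brain and testis differed at week 2 (0.65 ± 0.27, edgeR adjusted p = 0.0255, 0.0705 with a replicate block and 0.278 without the libraries numbered 2) and at week 104 (2.21 ± 0.50, edgeR adjusted p = 5.39e-05). They were not called at week 6 (-0.70 ± 0.42) or week 21 (-0.31 ± 0.32, 0.14 with library size alone).

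The share of miR-211-5p in the summed reads of both 5p miRNAs does not depend on scaling, since both counts come from the same library. Shares below are pooled over the libraries of an organ, with a 95% Wilson interval that covers counting error only, and the spread between single libraries was wider. The share was 0.489% (0.474 to 0.505%) in the brain, where single libraries spanned 0.272 to 1.32%, 0.359% (0.302 to 0.428%) in the kidney (0 to 0.884%), 0.424% (0.363 to 0.495%) in the adrenal gland (0 to 2.37%) and 0.481% (0.444 to 0.52%) in the testis (0.253 to 0.91%). It was 0.8% (0.698 to 0.916%) in the heart (0 to 2.18%), 1% (0.898 to 1.12%) in skeletal muscle (0.312 to 2.66%) and 1.24% (1.07 to 1.43%) in the uterus (0 to 5.57%), so single libraries of all these organs overlapped. The order among them changed with age. At week 21 the heart held 0.495% (0.364 to 0.674%) and the testis 0.824% (0.718 to 0.945%), while at week 104 the heart held 1.06% (0.874 to 1.28%) and the testis 0.286% (0.233 to 0.35%). The lung and the thymus also changed places: the lung held 2.49% (2.2 to 2.83%) at week 2, 5.17% (4.7 to 5.67%) at week 6, 4.55% (4.15 to 4.98%) at week 21 and 4.89% (4.47 to 5.35%) at week 104, and the thymus 2.26% (1.81 to 2.81%), 3.34% (2.81 to 3.96%), 9.11% (8.57 to 9.68%) and 10.4% (10.1 to 10.7%). A male thymus library of week 104 held 28.8%, and the median over single thymus libraries was 9.76% at week 21 and 8.85% at week 104. Leaving aside the liver, the spleen had the highest pooled share at every age, with 5.26% (4.98 to 5.56%), 14.4% (14.1 to 14.8%), 24.3% (24 to 24.7%) and 26.7% (26.3 to 27.2%). In the liver the pooled 6.34% (5.03 to 7.96%) rested on 68 reads of miR-211-5p, 35 of them from 1 library.

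Brain and kidney, both known for miR-204, differed in its level (brain over kidney 3.89 ± 0.20, 3.91 ± 0.26, 3.12 ± 0.20 and 3.55 ± 0.23, log2 ± SE, at weeks 2, 6, 21 and 104), and no difference in the ratio of both miRNAs was detectable. On the scale of log2((miR-211-5p + 0.5)/(miR-204-5p + 0.5)) per library, brain minus kidney was -0.07 at week 2, 0.34 at week 6, 0.70 at week 21 and 0.11 at week 104. None of the 4 passed the two-sided exact permutation test (raw p 0.836, 0.481, 0.199 and 0.739, adjusted over the 4 ages 0.836, 0.836, 0.797 and 0.836). Kidney libraries held 0 to 13 reads of miR-211-5p, so the ratio there is imprecise. Reads of miR-204-5p counted for miR-211-5p could also make the ratios alike, which was not tested. In contrast, spleen minus brain was 3.85, 5.63, 6.10 and 5.95 at weeks 2, 6, 21 and 104, and no spleen library overlapped a brain library. The exact permutation p was 0.000155 at weeks 2 and 21 and 0.000311 at weeks 6 and 104 (adjusted over 10 added tests 0.000389 and 0.000518), the smallest these group sizes allow. The spleen tests were added after the data were seen.

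**Figure D3:**
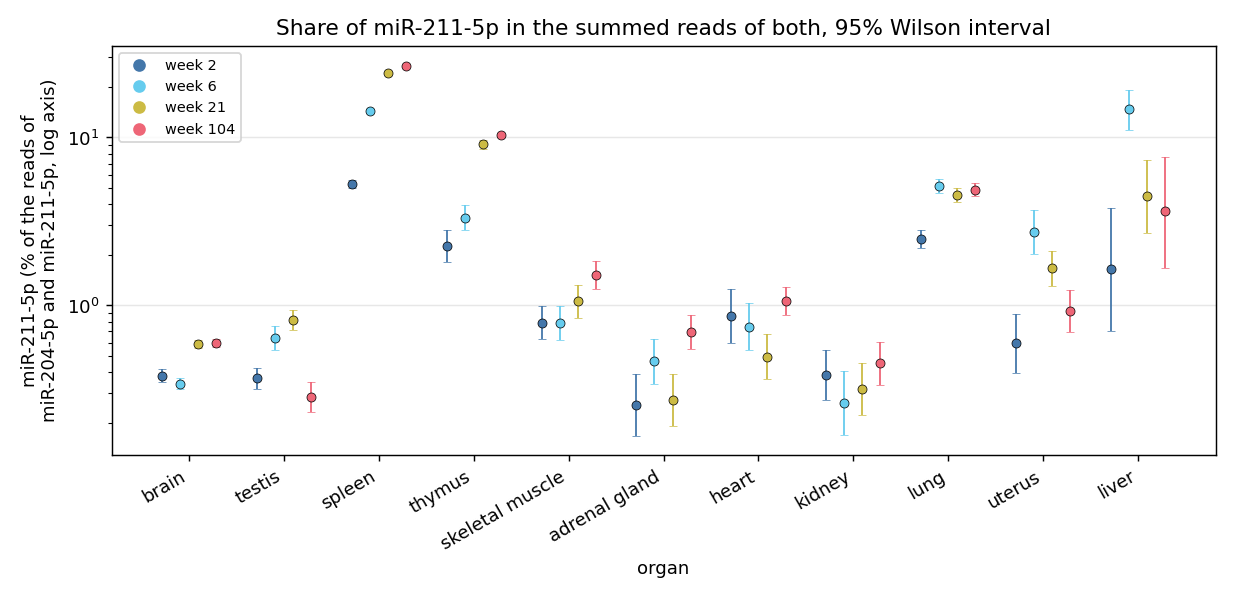
Share of miR-211-5p in the summed reads of miR-204-5p and miR-211-5p (percent, log axis) by organ and age, pooled over the libraries of a group, with 95% Wilson intervals for counting error. The spleen rises from 5.26% at week 2 to 26.7% at week 104, while brain and kidney stay below 1%.

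Age changed both 5p miRNAs in most organs. Between adjacent ages miR-204-5p rose in 11 and fell in 3 of 33 contrasts (edgeR adjusted p under 0.05), and miR-211-5p rose in 7 and fell in 1, against 10.1% of all miRNA contrasts called higher and 12.7% called lower at the later age. Between week 2 and week 104 miR-204-5p rose in 6 of 11 organs and miR-211-5p in 8, and neither fell in any, against 21.8% called higher and 28.1% called lower for all miRNAs. With library size alone, 5 of those 6 and 6 of those 8 were called in the same direction. The exceptions were miR-204-5p in skeletal muscle (log2 fold change 0.52 ± 0.18 (SE), edgeR adjusted p = 0.0117), which turned to -0.39, and miR-211-5p in skeletal muscle and kidney, at 0.54 and 0.93 and no longer called. In the testis, where neither was called under TMM, library size alone called both lower at week 104 (-1.53 for miR-204-5p and -1.86 for miR-211-5p). Over all 44 age contrasts the sign differed between the scalings in 10 for miR-204-5p and in 0 for miR-211-5p. The rise of miR-211-5p in the liver from week 2 to week 6, 1 of the 7, rested on the male library with 35 reads (edgeR adjusted p = 0.408 without it), and no fold is given because week 2 held at most 2 reads per library.

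**Figure D4:**
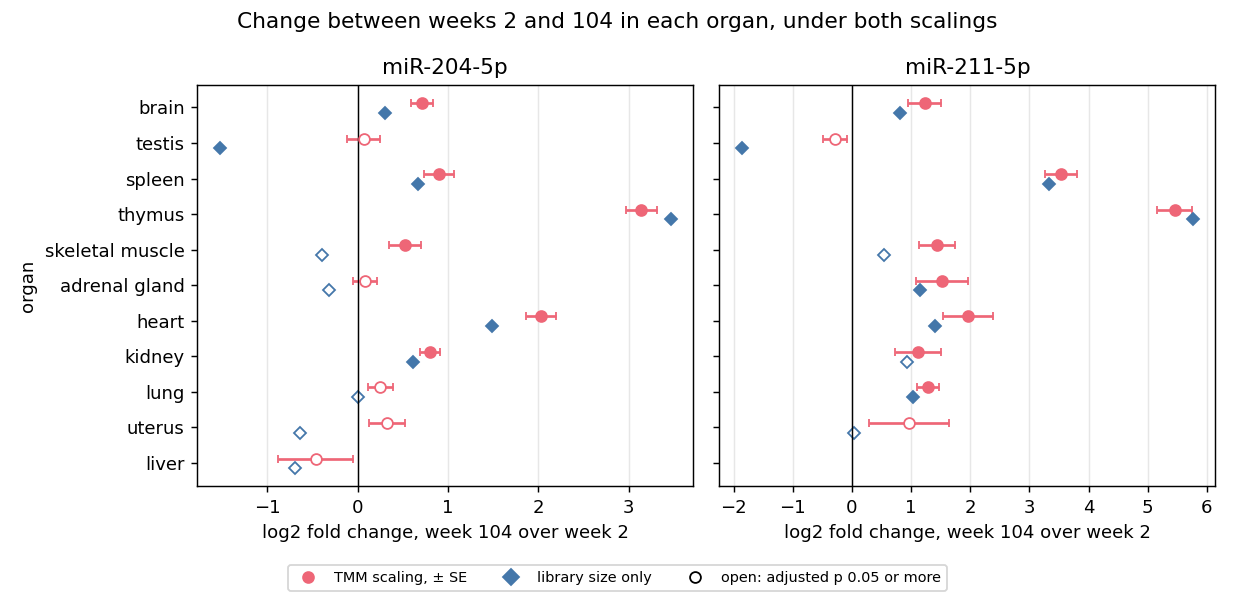
Log2 fold change of week 104 over week 2 for both 5p miRNAs in each organ. Circles are TMM-scaled fits with SE, diamonds use library size alone, and open symbols have an adjusted p of 0.05 or more. The liver is not drawn for miR-211-5p, since no library of either age held more than 3 reads, and the testis is at 0.07 under TMM and -1.53 with library size alone for miR-204-5p.

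In the spleen both miRNAs rose between weeks 2 and 6, and miR-211-5p rose again by week 21. The RNA of the week 2 spleens was of low integrity, so age and RNA quality cannot be told apart in the first step, while the second step does not use those libraries. miR-211-5p at week 2 was 90.2, 109.6, 119.9 and 70.3 CPM in females and 72.3, 67.1, 49.2 and 56.7 in males. At week 6 it was 412, 351, 370.2 and 288 in females and 383, 354, 369 and 326 in males, all above every week 2 library. At week 21 it was 1170.4, 794, 911 and 752 in females and 770.4, 979.8, 877 and 1062 in males, again with no overlap with week 6. Both steps were called: from week 2 to 6 (log2 fold change 2.62 ± 0.26 (SE), edgeR adjusted p = 8.75e-09) and from week 6 to 21 (log2 fold change 1.26 ± 0.24 (SE), edgeR adjusted p = 0.000615). miR-204-5p rose over the first step (log2 fold change 0.98 ± 0.16 (SE), edgeR adjusted p = 1.9e-05) and was not called over the second (0.32 ± 0.16). At week 104 females had 68.1, 681 and 968 CPM and males 987, 884, 1343 and 1018, so the first female library was far below the others, and the change from week 21 was not called (log2 fold change -0.34 ± 0.25 (SE), edgeR adjusted p = 0.595). For week 104 over week 2, where 15.4% of all miRNAs were called higher, miR-211-5p had 3.54 ± 0.27 and 3.80 without that library, and miR-204-5p had 0.90 ± 0.17 and 1.06 without it. This contrast uses the week 2 spleens too.

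The share of miR-211-5p in the spleen rose from 5.26% (4.98 to 5.56%) at week 2 to 14.4% (14.1 to 14.8%) at week 6 and 24.3% (24 to 24.7%) at week 21. The log2 ratio rose by 1.66 and 0.93 over these steps (exact permutation p = 0.000155 for each, the smallest possible, adjusted 0.000389), with no overlap between adjacent ages, and the first of them rests on the week 2 spleens of low RNA integrity. From week 21 to week 104 it changed by -0.08 (exact permutation p = 0.869, adjusted 0.869), and by 0.26 without the library that stood apart (exact permutation p = 0.194). At week 104 the 4 male libraries held 28.9, 32.3, 32.9 and 31.5% miR-211-5p and the 3 females 6.83, 19.9 and 23.8%, with no overlap, and this difference was not tested. Among spleen markers between weeks 2 and 6, the red cell miRNA miR-451-5p fell by 1.04 and the lymphocyte miRNA miR-150-5p rose by 0.50 on the log2 scale, and their part in the result was not tested. The summed CPM of 5 neuronal markers had a median of 62.9 at week 2 and 64.8 at week 21.

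The thymus, the organ in which T cells mature and which shrinks with age, showed the largest rise of both miRNAs. miR-204-5p was 181, 283, 179.7 and 142 CPM in females and 207, 207, 199.6 and 161 in males at week 2. At week 104 it was 2929, 2049, 2734 and 3083 in females and 1153, 3093, 1710.4 and 962 in males, and every library of week 104 exceeded every younger one. It rose from week 6 to week 21 (log2 fold change 1.27 ± 0.16 (SE), edgeR adjusted p = 5.21e-07) and from week 21 to week 104 (log2 fold change 1.70 ± 0.16 (SE), edgeR adjusted p = 1.31e-10). miR-211-5p rested on 8, 26, 8 and 4 reads in females and 13, 5, 9 and 4 in males at week 2. At week 104 it rested on 299, 587, 553 and 708 reads in females and 340, 376, 342 and 1103 in males. It rose over the same steps (log2 fold change 2.88 ± 0.27 (SE), edgeR adjusted p = 1.36e-09, and log2 fold change 1.86 ± 0.23 (SE), edgeR adjusted p = 4.46e-08). Week 104 over week 2 came to 3.14 ± 0.17 for miR-204-5p and 5.46 ± 0.29 for miR-211-5p, and 25% of all miRNAs were called higher.

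The share of miR-211-5p in the thymus rose from 3.34% (2.81 to 3.96%) at week 6 to 9.11% (8.57 to 9.68%) at week 21, a log2 ratio higher by 1.80 (exact permutation p = 0.000777, adjusted 0.00111), with some overlap between libraries. The other steps did not pass (0.40 from week 2 to 6, exact permutation p = 0.274, and 0.19 from week 21 to 104, exact permutation p = 0.644). Between weeks 2 and 104 the thymocyte miRNA miR-181a-5p fell by 3.03 ± 0.32 (log2), from a mean of 388604 to 59620.0 CPM. miR-451-5p rose by 4.14 and miR-10a-5p by 3.20, the summed kidney markers miR-192-5p, miR-194-5p and miR-215 went from a median of 1142 to 739 CPM, and the summed neuronal markers from a median of 49.6 to 69.5 CPM. The part of these changes in the rise of the members was not tested.

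In the testis both miRNAs were lower at week 104 than at week 21. miR-204-5p was 4777, 4802, 5151 and 4936 CPM at week 21 and 1507, 1469.9, 1079 and 1246 at week 104. miR-211-5p was 43.9, 35.4, 38.6 and 45.3 CPM at week 21 and 4.93, 4.26, 2.74 and 3.52 at week 104, from 48, 42, 48 and 64 and 22, 24, 20 and 26 reads. No library of one age overlapped the other for either miRNA. miR-211-5p fell by 2.13 ± 0.20 on the log2 scale (edgeR adjusted p = 1.06e-07) and miR-204-5p by 0.59 ± 0.18 (edgeR adjusted p = 0.0108), where 24.8% of all miRNAs were called lower. With library size alone the values were -3.40 and -1.89. TMM moved the median of all miRNAs by 1.24 in this contrast. The edgeR call of miR-204-5p was lost without the libraries numbered 2 (edgeR adjusted p = 0.063), without those numbered 4 (0.0819), with the lane as a covariate (0.0565) and with a filter on a mean count of 10 (0.0917).

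The share of miR-211-5p fell with it, from 0.824% (0.718 to 0.945%) to 0.286% (0.233 to 0.35%). The earlier rise from week 2 to week 6 was called for miR-211-5p (log2 fold change 1.32 ± 0.20 (SE), edgeR adjusted p = 5.21e-05) and for miR-204-5p (log2 fold change 0.53 ± 0.18 (SE), edgeR adjusted p = 0.0248), but the latter was lost on leaving out the libraries of any single number. Week 104 over week 2 was 0.07 ± 0.18 for miR-204-5p under TMM and -1.53 with library size alone, so no direction can be given. Among testis markers between weeks 21 and 104, the germ cell miRNA miR-871-3p fell by 5.78 ± 1.02, while miR-202-5p had 0.23 ± 0.19 under TMM. The mean CPM of miR-202-5p was 7986 at week 21 and 3856 at week 104, so it fell in CPM. All 6 miRNAs of the ciliated epithelium list (miR-34b, miR-34c and miR-449, which germ cells also express) fell, with a median of -6.64, where the median of all miRNAs was 0 and 24.8% were called lower. Of a list of endocrine miRNAs 3 of 3 fell (median -4.27). Of a neuronal list 5 of 8 fell and 0 rose (median -1.90), and of a kidney epithelium list 2 of 11 rose and 2 fell. The part of these changes in the fall of the members was not tested.

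The heart gained miR-204-5p during maturation, and so did the kidney as the mean over the sexes. In the heart it rose from week 2 to week 6 (log2 fold change 0.97 ± 0.16 (SE), edgeR adjusted p = 8.22e-06) and from week 6 to week 21 (log2 fold change 1.14 ± 0.16 (SE), edgeR adjusted p = 1.17e-06). Week 104 over week 2 was 2.03 ± 0.16, where 28.6% of all miRNAs were called higher. In the kidney it rose from week 6 to week 21 (log2 fold change 0.84 ± 0.11 (SE), edgeR adjusted p = 1.2e-06), and week 104 over week 2 was 0.80 ± 0.11. Male kidneys held 167 to 227 CPM at week 6 and 342 to 407 at week 21, with no overlap. Female kidneys held 188 to 210.5 CPM at week 6 and 169 to 248 at week 21, so in CPM their ages overlapped. In the brain miR-204-5p rose between weeks 2 and 6 (log2 fold change 0.61 ± 0.12 (SE), edgeR adjusted p = 0.000156, 0.33 with library size alone, adjusted p = 0.0906 with the lane as a covariate), and the later steps were not called. In the lung miR-211-5p rose between weeks 2 and 6 (log2 fold change 1.12 ± 0.19 (SE), edgeR adjusted p = 1.64e-05) while miR-204-5p was not called. The lung rise of miR-204-5p came between weeks 6 and 21 (log2 fold change 0.49 ± 0.14 (SE), edgeR adjusted p = 0.0103). The uterus was the organ with a fall in youth: miR-204-5p fell by 1.22 ± 0.21 between weeks 2 and 6 (edgeR adjusted p = 0.00014) and rose by week 21 (log2 fold change 0.98 ± 0.21 (SE), edgeR adjusted p = 0.00356), a rise with an adjusted p of 0.0637 without the libraries numbered 2 and 0.117 with the lane as a covariate. The adrenal gland had no called change of miR-204-5p.

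Sex differences were few. As the mean over ages, miR-204-5p was higher in males in 2 of 9 organs, against 1.39% of all miRNAs called in either direction, and miR-211-5p differed in 0 of 9 (1 of 9 at an unadjusted p under 0.05, and 0 by DESeq2). The calls of miR-204-5p were in the kidney (male over female 0.38 ± 0.08, edgeR adjusted p = 0.0038) and the adrenal gland (0.35 ± 0.09, edgeR adjusted p = 0.0252). Both were lost with library size alone, with the lane as a covariate, and without the libraries numbered 2 or 3, and that of the adrenal gland also without those numbered 4. In the kidney the difference was clearest at week 21, when males had 342, 384, 384 and 407 CPM and females 169, 232, 178 and 248, with no overlap (log2 fold change 0.78 ± 0.16 (SE), edgeR adjusted p = 0.00182). At a single age 1.32% of all miRNA contrasts were called. The week 21 call held with library size alone (0.87) and had an adjusted p of 0.0931 with the lane as a covariate and 0.0622 without the libraries numbered 1. At week 104 the kidneys of both sexes overlapped (0.41 ± 0.16, edgeR adjusted p = 0.302).

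In the heart males were above females at week 104. miR-204-5p was 361, 606, 375 and 756 CPM in males and 291, 247, 289 and 221 in females, with no overlap (edgeR adjusted p = 0.0539, and 0.00447 with library size alone). At week 2 it was 117, 127, 97.9 and 145 in males and 112, 109, 198 and 159.7 in females. The rise from week 2 to week 104 was 2.65 ± 0.24 in males and 1.41 ± 0.23 in females, and the difference of the rises was 1.24 ± 0.32 (edgeR interaction, adjusted p = 0.0384, 0.631% of all such contrasts called). Leaving out the libraries of any 1 number raised that adjusted p to between 0.0741 and 0.258. miR-211-5p in the same hearts rested on 8, 29, 10 and 38 reads in males and 3, 2, 5 and 7 in females (log2 fold change 2.31 ± 0.51 (SE), edgeR adjusted p = 0.0144, 0.386 without the libraries numbered 2). In the brain at week 21, miR-211-5p was 25.8, 79.8, 65 and 95.6 CPM in females and 26.9, 23, 21 and 22.2 in males (log2 fold change -1.47 ± 0.39 (SE), edgeR adjusted p = 0.0302). The first female brain overlapped the males, and the adjusted p was 0.47 without the libraries numbered 2, 0.241 without those numbered 4 and 0.183 in a fit of all 320 libraries. miR-204-5p was not called in the same brains (0.09 ± 0.17).

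**Figure D5:**
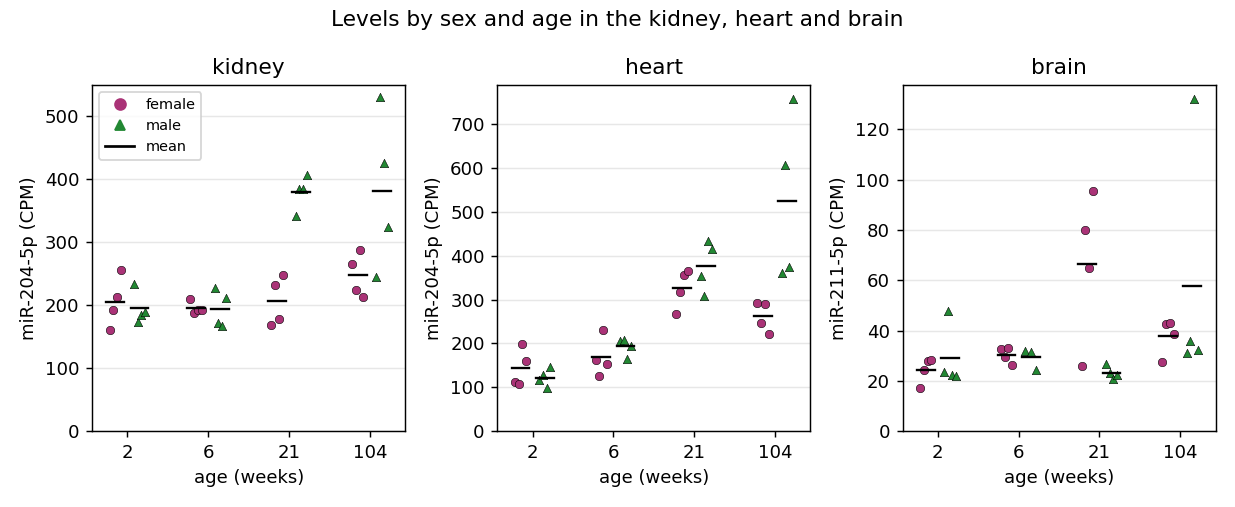
Levels in CPM (linear axes from 0) by age in weeks for miR-204-5p in the kidney and heart and miR-211-5p in the brain, with a point per library and bars for means. Male kidneys of week 21 lie between 342 and 407 CPM and female ones between 169 and 248.

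Lists of miRNAs of cell types that could carry the members were set beside these changes. Between weeks 2 and 104 in the spleen, 4 of 6 rose and 0 fell in the list of ciliated and choroid plexus epithelium (median 2.63, all miRNAs -0.07, with 15.4% of all called higher). Much of that size came from the first female spleen of week 104, the library low in miR-204-5p and miR-211-5p, and the contrast uses the week 2 spleens. The most abundant miRNA of the list, miR-34c-5p, stood at 7453 CPM there and at 169 to 337 in the other 6 libraries of that age, and rose by 2.92 ± 0.44 with that library and by 1.09 ± 0.15 without it. Without it the list had 4 of 6 higher and 1 lower, with a median of 1.06, and miR-449a-5p went from 0.10 ± 0.33 to -0.82 ± 0.23, a fall (edgeR adjusted p = 0.0058). In the thymus the kidney epithelium list, which holds miR-30a, miR-10a, the miR-200 family and the miR-192 group, had 6 of 11 higher and 3 lower (median 0.85, all miRNAs -0.19), against 25% of all miRNAs called higher and 33% lower, and miR-10a-5p and miR-30a-5p rose by 3.20 ± 0.21 and 1.99 ± 0.17. The endocrine miRNA miR-375-3p rose by 2.81 ± 0.23 there and miR-7a-5p fell by 0.89. Of the ciliated list, 4 of 6 rose and 2 fell in the thymus (median 1.15). In the heart 10 of 11 of the kidney epithelium list and 5 of 8 of the neuronal list rose (medians 0.80 and 1.49, all miRNAs 0.07, with 28.6% of all called higher). Of these lists 0 and 1 fell, and 26.1% of all miRNAs were called lower. The ciliated list had 4 of 6 higher and 1 lower in the heart (median 1.28). There miR-9a-5p rose by 1.62 ± 0.17 and miR-128-3p had 0.11 ± 0.14. In brain against kidney at week 21, 8 of 8 neuronal miRNAs and 5 of 6 of the ciliated list were higher in brain. Their medians were 6.99 and 1.91 (all miRNAs 0.33, with 43.2% of all called higher in brain), and miR-204-5p had 3.12. Of the kidney epithelium list 0 of 11 were higher and 7 lower in brain, where 35.9% of all miRNAs were called lower. Of the endocrine list 2 of 3 were higher and 1 was lower. The neuronal and kidney epithelium lists hold organ markers of brain and kidney, so their directions largely followed from their choice.

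Over the 44 groups of organ and age (means of log2(CPM + 1)), the miRNAs with the pattern most like miR-204-5p were miR-204-3p (Pearson r = 0.844), miR-138-5p (Pearson r = 0.841) and miR-3583-3p (0.836). Those most like miR-211-5p were miR-342-5p (0.794), miR-186-5p (0.771) and miR-191a-5p (0.764). miR-204-5p and miR-211-5p had r = 0.723 with each other. Groups share rats and are not independent, so these values only describe. The lists depended on the measure: with 10 CPM added, miR-138-5p and miR-3583-3p stayed in the first list and miR-342-5p and miR-191a-5p in the second, and by Spearman's rho only miR-186-5p stayed in the second and none in the first. Within the brain, deviations of miR-204-5p from the means of its sex and age groups over 31 libraries were most like those of miR-1298 (r = 0.632), miR-486 (0.62) and miR-449a-5p (0.553). For the other miRNAs of the ciliated list, r in the brain was 0.479 for miR-34c-5p and -0.0383 to 0.199 for the rest. Within the kidney, over 32 libraries, deviations of miR-204-5p were most like those of miR-150-5p (0.847), miR-130b-3p (0.816) and miR-484 (0.802), and the CPM of 1 library share their total.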

How the data were processed

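Small RNA was sequenced from 11 organs of Fischer 344 rats, with 1 library per organ from 4 rats for each sex and age. The authors trimmed reads with fastp 0.23.2 and aligned them with Bowtie 1.3.1, allowing fewer than 2 mismatches. The references were miRBase for miRNAs, collections of other RNAs, and the rat genome (build rn7). The authors removed miRNAs with low means and deposited raw read counts per miRNA, with no normalization. The file gives no isoforms or molecular identifiers.

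From these counts CPM were computed over column totals. All 616 miRNAs were fitted per contrast with edgeR 4.0.16 (R 4.3.3, quasi-likelihood test, TMM, Benjamini-Hochberg adjustment, threshold 0.05). SE was the log2 fold change divided by the root of F. Organs were called at 4-fold. Ratios used exact two-sided permutation tests (SciPy 1.17.1) after adding 0.5 to each count. A floor of 3 counts was used. The 2 libraries that the study removed were left out, and 0 columns were unused. The sequencing lane (8 lanes) was tried as a covariate, DESeq2 1.42.0 as another tool. Same-numbered libraries were checked for pairing: their mean correlation was 0.0104, and 1 of 32 groups exceeded 0.1. The labels do not say that a number is one rat across organs, and a low correlation cannot decide it. The main fits and the permutation tests treated libraries of different organs as independent, although each rat gave several organs. A replicate block was fitted as an alternative. On simulated data 188 to 196 of 200 miRNAs changed 4-fold were recovered, with 6 to 7 false calls. Equal numbers were raised and lowered on 1 mean profile for all libraries, so smaller or unbalanced changes were not tried.

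The members and lists were chosen with earlier results of these data known. Named were the members, the 3 miRNAs of most like pattern, and the 2 most abundant miRNAs of each list. Organ markers and miRNAs that moved beside a result were also named.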

Additional observations from a re-analysis of the deposited data

Results flagged for a closer look

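In groups of 4 libraries, the highest or lowest library stood apart in 8 of 147 groups (Dixon's test), where chance alone gives about 1 in 20. For miR-204-5p these were a male liver of week 6 at 184 CPM (others 7.85 to 34.2), a female skeletal muscle of week 6 at 1145 CPM (others 387.6 to 453.9), a male thymus of week 2 at 161 CPM (others 199.6 to 207) and a female uterus of week 104 at 115 CPM (others 154 to 159). For miR-211-5p they were a male brain of week 104 at 132 CPM (others 31.1 to 35.7), a male brain of week 2 at 47.9 CPM (others at most 23.5), a female liver of week 6 at 15.8 CPM from 5 reads and the same male liver of week 6 at 51.7 CPM from 35 reads. The skeletal muscle library of week 6 is the one that the study's metadata list with a brain file name. The rise of miR-204-5p in the heart from week 2 to week 104 differed between the sexes by 1.24 on the log2 scale (edgeR interaction, male minus female). The libraries left out had signal as well. The male brain of week 6 held 4623 CPM of miR-204-5p, below the 8446 to 9716 of the 3 kept male brains of that age, and 51.7 CPM of miR-211-5p, above their 24.5 to 32.1. The female spleen of week 104 held 1582 CPM of miR-204-5p and 218 CPM of miR-211-5p. Of the 3 kept female spleens, the first, which stood apart, held 929 and 68.1 CPM. The others were above the library left out, with 2737 and 3104 CPM of miR-204-5p and 681 and 968 of miR-211-5p.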

How the results depend on the processing

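The counts of organ and age calls stayed within 1.5 times under every alternative run; leaving out 1 replicate number gave 114 to 116 and 123 to 128 organ calls and 17 to 19 and 14 to 17 age calls (adjacent ages, and week 104 over week 2) for miR-204-5p and miR-211-5p. With a replicate block the counts were 114 and 123 organ calls, 20 and 16 age calls and 2 and 0 sex calls, and 2 single calls were lost, both printed in the report. Of 78 results, 47 kept direction and side of the threshold under all alternatives. The sex calls of miR-204-5p went to 0 with library size alone and to 0 with the lane as a covariate, and were 0 to 2 without 1 replicate number. With library size alone miR-204-5p of week 104 over week 2 turned to -0.39 in skeletal muscle and -1.53 in the testis, miR-204-5p of spleen over testis at week 104 to 0.79, and miR-211-5p of brain over testis at week 21 to 0.14. In the testis, week 104 over week 2 of miR-204-5p was -0.0501 to 0.18 without 1 replicate number, and that of miR-211-5p was 0.0705 with a mean count of at least 10. The brain minus kidney ratio was -0.34 to 0.11 at week 2 and -0.0820 to 0.34 at week 104 without 1 replicate number, and -0.0245 at week 104 with 1 added to each count. The causes were not tested. Liver depth and the few miR-211-5p reads in kidney, heart and liver limit the values there.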
